A study of Mus musculus with 6 samples.

Results

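The chemokine system of cold-exposed inguinal fat is described here through 41 of the 16627 genes in the deposited count table. They are the protein-coding genes whose symbols mark a chemokine ligand (Ccl, Cxcl), a chemokine receptor (Ccr, Cxcr) or an atypical receptor (Ackr), together with the fractalkine gene Cx3cl1, its receptor Cx3cr1 and the lymphotactin receptor Xcr1. The design addresses the role of the RNA-binding protein Celf1 when inguinal fat turns beige. It set 3 libraries from mice whose adipocytes lack Celf1 (Celf1 AKO) against 3 from floxed littermates (Flox control). All 6 libraries come from mice held at 4 °C for 6 hours, so the effect of cold itself is not measured. The sources used here do not give the Cre driver, sex or age, or whether each library is a single mouse, and p-values therefore measure only the spread between these libraries. Each library held 54835348 to 64979443 counts. Expression is given as CPM, the usual depth-scaled count, here also adjusted for library composition. A gene at 1 CPM rested on 54.9 to 67.8 counts in a library. The values of a group are given in the order of replicates 1, 2 and 3. Celf1 itself was at 52.5, 49.8 and 63.0 CPM in Celf1 AKO and at 126, 114 and 144 CPM in Flox control. That difference, a log2 fold change of -1.21 (SE 0.14), did not itself pass edgeR's test over all genes (adjusted p = 0.122), while DESeq2 called it (adjusted p = 1.21e-09). The adipocyte markers listed summed to 24561 to 31627 CPM in every library. The deletion is labelled as adipocyte-specific, whereas most chemokine receptors are carried by leukocytes. In bulk tissue, fewer cells of a type and less RNA per cell cannot be told apart.

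Chemokines are small secreted proteins that steer leukocytes through G-protein-coupled receptors. Inflammatory ligands are induced by cytokines and tissue stress, while homeostatic ligands are made steadily by stromal and endothelial cells and position lymphocytes and progenitors. Atypical receptors bind chemokines without G-protein signalling, and several of them clear their ligands from the tissue. In white fat, ligands from adipocytes, stromal cells and macrophages bring in monocytes, neutrophils and eosinophils.

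None of the 40 members that could be tested passed the test for a difference between the genotypes, corrected over all genes. The widest differences were in Cxcl2 and Cxcl1, ligands that attract neutrophils, which averaged 12.9 against 0.788 CPM and 7.77 against 1.35 CPM in Celf1 AKO and Flox control, but rested mainly on Celf1 AKO replicates 1 and 2. Ligands were mostly higher in Celf1 AKO (20 of 25 with a positive log2 fold change, median 0.30) and receptors mostly lower (13 of 15 negative, median -0.32). Celf1 AKO replicate 2 was the lowest of the 6 libraries for 10 of the 15 receptors, against 23.4% of all genes. The same library was the lowest for 10 of 12 macrophage markers, 7 of 10 T and NK cell markers, 5 of 6 mast cell and eosinophil markers and 5 of 8 fibroblast markers. In contrast, it was the lowest for 1 of 9 neutrophil, 1 of 8 endothelial, 0 of 8 adipocyte and 0 of 6 Schwann cell markers.

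The test was edgeR's quasi-likelihood test with Benjamini-Hochberg adjustment, in which 0.0122% of the 16366 genes tested passed. Of the 40 tested members 0 passed, with adjusted p-values of 0.301 for Cxcl2 and upwards. At an unadjusted p under 0.05 there were 3 members (7.5%), all higher in Celf1 AKO (Cxcl2, Ccl3 and Cxcl12), beside 12.9% of all genes tested (6.75% higher and 6.17% lower in Celf1 AKO). That count was 1 without Flox control replicate 3, 5 without Celf1 AKO replicate 3 and 6 without Celf1 AKO replicate 1. The share of all genes at that threshold was not computed in those fits, so these counts have no background. The 2 groups did not overlap in CPM for 4 members (10%), against 17.3% of all genes (7.81% higher and 9.51% lower): Ccl3 was higher in all 3 Celf1 AKO libraries, and Ackr2, Cxcr4 and Ccl25 were lower. DESeq2, which called 3.04% of all genes, also called 0 members. It had 7 at an unadjusted p under 0.05, again without a share of all genes to set beside them. Cx3cr1 was the member that failed the filter on low counts, with a total of 56 counts over the 6 libraries.

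**Figure D1:**
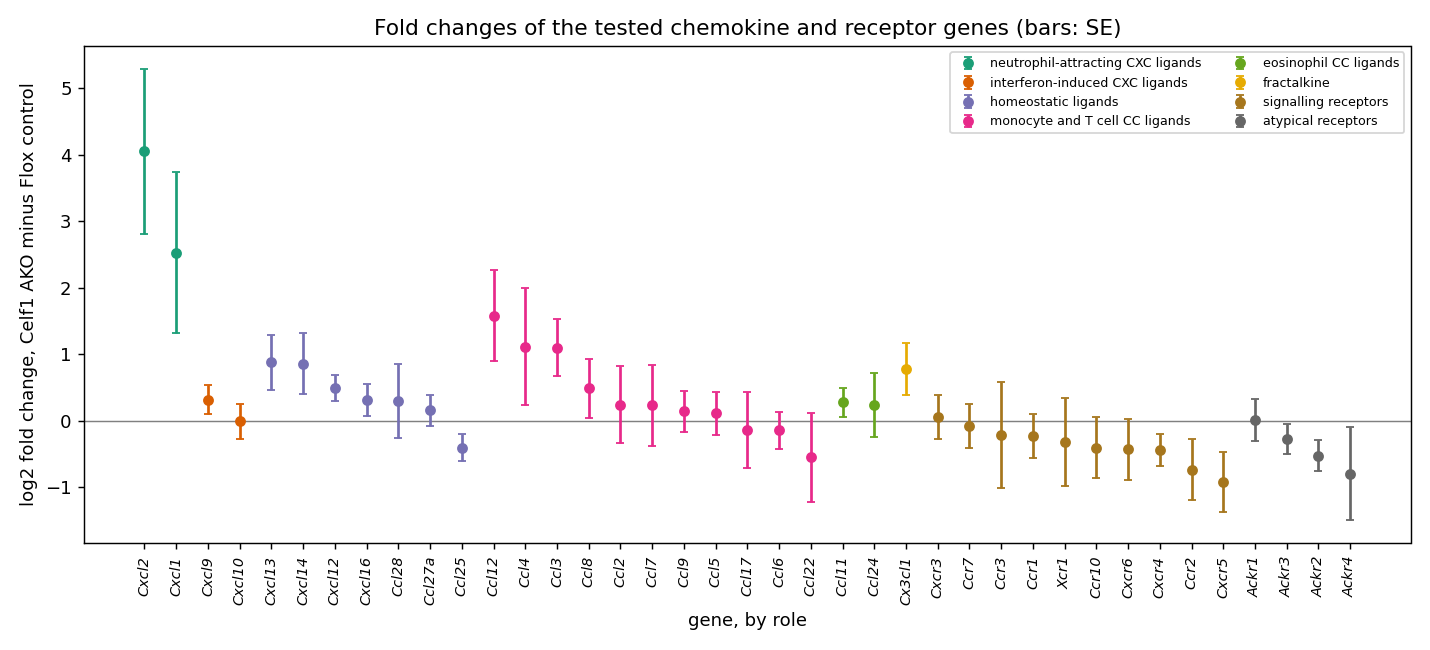
Log2 fold change of the tested members reported by name, Celf1 AKO minus Flox control, with points for the edgeR estimate and bars for its SE, ordered and coloured by role. Cxcl2 (4.05) and Cxcl1 (2.53) lie highest with wide bars, and most receptors lie below 0, none of them past the test.

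The size of the split between ligands and receptors depended on single libraries, while the ligands' median stayed positive and the receptors' median negative. Without Celf1 AKO replicate 2, only 9 of 16 receptors were negative, with a median of -0.16, and the ligands' median was 0.49. The receptors' median was -0.19 without Flox control replicate 3. Without Celf1 AKO replicate 1, 15 of 25 ligands were positive, with a median of 0.14, and all 15 receptors were negative. Flox control replicates mattered too: the ligands' median was 0.54 when replicate 1 was left out and 0.16 when replicate 2 was. Among all genes tested, 47.5% had a positive log2 fold change and the median was -0.02. Scaling by library totals, upper quartiles or RLE factors left 20 or 21 of 25 ligands positive and 13 of 15 receptors negative.

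Levels between genes are compared in FPKM, which divides by gene length. Ccl6 was the most abundant member, with a mean of 301 FPKM over the 6 libraries, and was followed by Ccl9 at 96.7 FPKM. Both are CC ligands made by macrophages and other myeloid cells, and both act on Ccr1. Next came Cxcl13, which draws B cells, at 60.8 FPKM, and Ccl11, the eosinophil ligand eotaxin, at 43.2 FPKM. Ackr3, the scavenger of Cxcl12, was the highest receptor gene, at 35.9 FPKM, and Ccl8, a ligand for monocytes, had 30.1 FPKM. Cxcl12 (29.3 FPKM) and Cxcl14 (29.2 FPKM), both homeostatic ligands, were level with it. These neighbours do not differ beyond their spread, since the libraries of each ran from 16.5 to 62.6 FPKM for Ccl8 and from 11.3 to 62.8 FPKM for Cxcl14. The lowest members, Xcr1, Ccr3 and Cx3cr1, were under 0.1 FPKM on average, on totals of 99, 67 and 56 counts. Of the signalling receptors the highest was Ccr1, at 4.74 FPKM, below all of the ligands ranked in this paragraph.

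**Figure D2:**
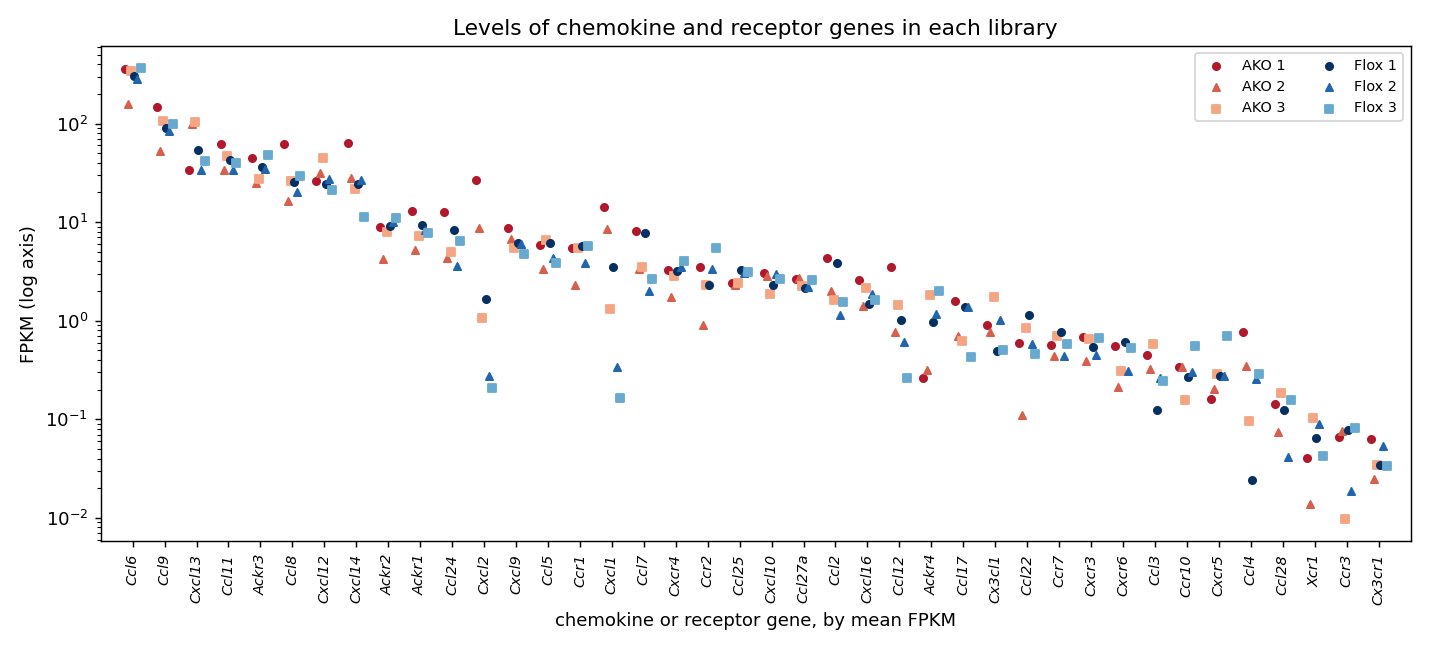
FPKM of the members reported by name in each library on a log axis, ordered by the mean, with red shades for Celf1 AKO and blue shades for Flox control. Ccl6 leads at a mean of 301 FPKM, and the spread over libraries is widest for Cxcl2 and Cxcl1.

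Cxcl1 and Cxcl2 are inducible ligands that draw neutrophils out of vessels. Their genes lie side by side on GRCm38 chromosome 5, Cxcl1 (ENSMUSG00000029380) from 90891241 to 90893115 and Cxcl2 (ENSMUSG00000058427) from 90903871 to 90905938, both on the plus strand and 10755 bases apart. The 180 bases before the RefSeq start of each are shown because these 2 neighbours varied together over the libraries, with Cxcl10, an interferon-induced ligand further along the chromosome, for contrast. They are from GRCm38.p6, at chr5:90891065-90891244 (plus strand), chr5:90903719-90903898 (plus strand) and chr5:92348890-92349069 (minus strand), and capitals mark matches to the NF-κB consensus on either strand, overlapping matches merged.
Cxcl1: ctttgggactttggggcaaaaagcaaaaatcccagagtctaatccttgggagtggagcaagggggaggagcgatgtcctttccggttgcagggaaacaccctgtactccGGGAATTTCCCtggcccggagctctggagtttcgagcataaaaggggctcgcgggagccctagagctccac
Cxcl2: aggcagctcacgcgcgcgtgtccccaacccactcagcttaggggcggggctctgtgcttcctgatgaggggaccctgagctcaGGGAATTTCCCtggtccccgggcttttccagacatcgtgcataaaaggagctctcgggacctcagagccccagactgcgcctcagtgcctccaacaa
Cxcl10: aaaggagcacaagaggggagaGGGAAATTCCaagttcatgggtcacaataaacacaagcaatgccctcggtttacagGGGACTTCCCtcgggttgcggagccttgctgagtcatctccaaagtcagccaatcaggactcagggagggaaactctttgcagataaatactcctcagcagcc
Cxcl1 and Cxcl2 share the same run of 11 letters, GGGAATTTCCC, and Cxcl10 holds 2 other matches. Over windows of 300 bases (250 before the start and 50 after it), 30 members had an entry in the RefSeq table, with 33 windows in all. Of these members, 7 held the NF-κB consensus and 0 the cyclic AMP response element TGACGTCA in any window, on either strand. Of all 32851 windows 4.51% and 1.79% did. The members are counted as genes and the background as windows, so the shares are not like for like. A match describes the letters only and was not tested against any binding data.

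Cxcl2 measured 28.0, 9.72 and 1.08 CPM in Celf1 AKO and 1.87, 0.280 and 0.214 CPM in Flox control. Cxcl1 measured 13.4, 8.66 and 1.21 CPM in the knockout and 3.60, 0.310 and 0.153 CPM in the controls. For both genes Celf1 AKO replicates 1 and 2 were the highest libraries, Flox control replicate 1 came next, above Celf1 AKO replicate 3, and the groups overlapped. Celf1 AKO replicates 1 and 2 and Flox control replicate 1 were the 3 highest libraries for 6 of 40 members (15%), against 10.4% of all genes. The log2 fold change was 4.05 (SE 1.25) for Cxcl2, edgeR adjusted p = 0.301, and 2.53 (SE 1.22) for Cxcl1, edgeR adjusted p = 0.426. With single libraries left out they ran from 2.82 to 5.69 and from 1.91 to 5.05, the highest of each without Flox control replicate 1. When Celf1 AKO replicate 3 was left out, the edgeR adjusted p of Cxcl2 came to 0.0544. In these genes the highest library was more than 5 times the median of the 6, which held for 2 of the 38 members with a mean of at least 0.2 CPM and for 0.925% of all such genes.

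**Figure D3:**
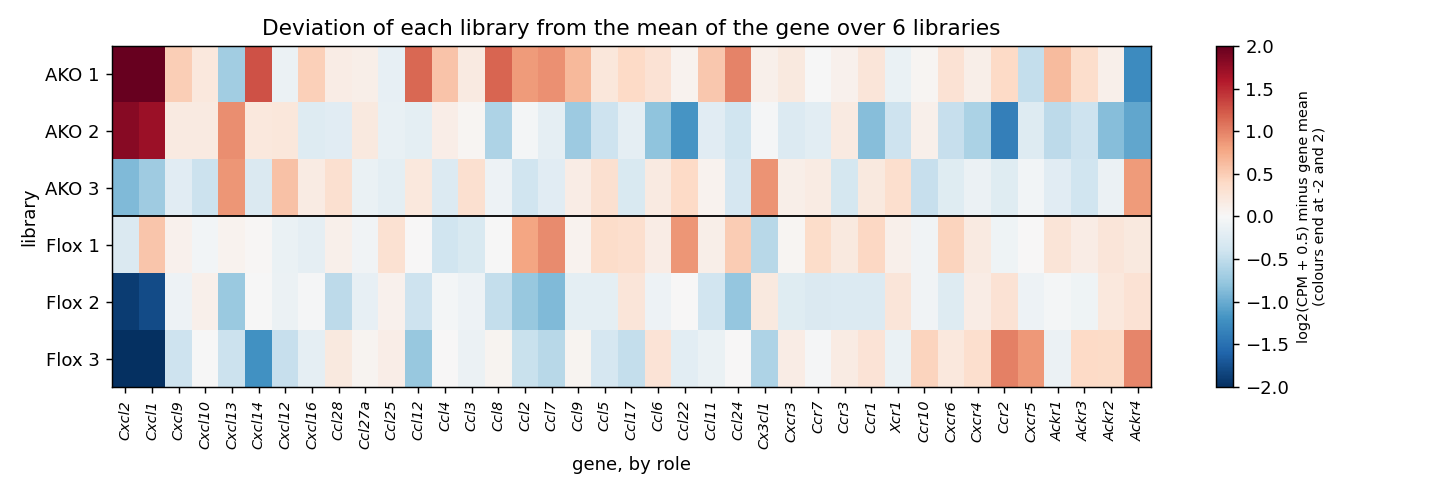
Log2(CPM + 0.5) of each tested member reported by name in each library minus the gene's mean over the 6 libraries, with genes by role along the x axis and libraries along the y axis. Cxcl2 and Cxcl1 are deep red in Celf1 AKO replicates 1 and 2 and blue in Flox control replicates 2 and 3, and Celf1 AKO replicate 2 is blue for most receptors.

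The list of inducers and regulators of chemokine transcripts was compared over the same libraries. Of 28 tested genes in that list 20 had positive log2 fold changes (median 0.43) and 0 passed over all genes. Without Celf1 AKO replicate 3, 4 passed (Atf3, Zfp36l1, Zfp36 and Socs3), where 3.19% of all genes did. Il6, a cytokine often induced beside Cxcl1, was at 1.62, 0.786 and 0.369 CPM in Celf1 AKO and at 0.274, 0.0886 and 0.0459 CPM in Flox control. Zfp36, whose protein destabilizes cytokine and chemokine mRNAs, was at 819, 757 and 153 CPM in Celf1 AKO and at 197, 89.9 and 69.7 CPM in Flox control. Like both ligands, Zfp36 was highest in Celf1 AKO replicates 1 and 2, then in Flox control replicate 1. These were the 3 highest libraries for 8 of the 28 genes and for 10.4% of all genes tested. The log2 fold change of Atf3, a stress-induced transcription factor, was 1.43 (SE 0.33), and that of Zfp36l1, a relative of Zfp36, was 1.05 (SE 0.28). Their edgeR adjusted p-values were 0.246 and 0.261, and 0.0147 and 0.0259 without Celf1 AKO replicate 3. DESeq2, which called 3.04% of all genes, called 4 genes of the list. Its adjusted p-values were 0.00285 for Atf3, 0.0200 for Zfp36l1, 0.0302 for Il6 and 0.0478 for Zfp36. No NF-κB gene of the list passed the edgeR test. The log2 fold change was 0.42 (SE 0.15) for the subunit gene Rela and 0.44 (SE 0.21) for Relb, both with separate groups, and -0.01 (SE 0.10) for Nfkb1. For the further subunit gene Nfkb2 it was 0.24 (SE 0.20). Those of Nfkbia and Nfkbiz, genes of the IκB family that NF-κB itself induces, were 0.61 (SE 0.20) and 1.502 (SE 0.57). The IκB family genes Bcl3 and Nfkbie of the same list did not share that rise, at 0.07 (SE 0.30) and -0.25 (SE 0.40). Tnf, the cytokine, was under 0.35 CPM in every library.

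Neutrophil markers were also higher in Celf1 AKO on average, with log2 fold changes above 0 for 9 of 9 tested (median 2.32). Of these, 5 had an edgeR unadjusted p under 0.05, where 6.75% of all genes tested were higher at that threshold. At the adjusted threshold 0 passed. The 9 markers among the genes analysed (of 12 listed, without Ly6g, Mpo and Camp) summed to 70.2, 46.7 and 156 CPM in Celf1 AKO and to 26.2, 49.5 and 31.2 CPM in Flox control. Of the 9, 6 were highest in Celf1 AKO replicate 3 and 2 (Ltf and Mmp9) in Celf1 AKO replicate 1, where Cxcl1 and Cxcl2 were highest too. In that replicate 1, Mmp9, which other cells also express, made up 44.8 CPM of the sum. Ltf is on the list of mammary epithelial markers as well, and 4 of the 5 tested there were highest in Celf1 AKO replicate 1. Celf1 AKO replicate 3 also had the highest sum of erythrocyte markers, 1271 against 351 to 598 CPM in the others. The part of blood in the marker values and of neutrophils in the ligands' values was not tested.

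**Figure D4:**
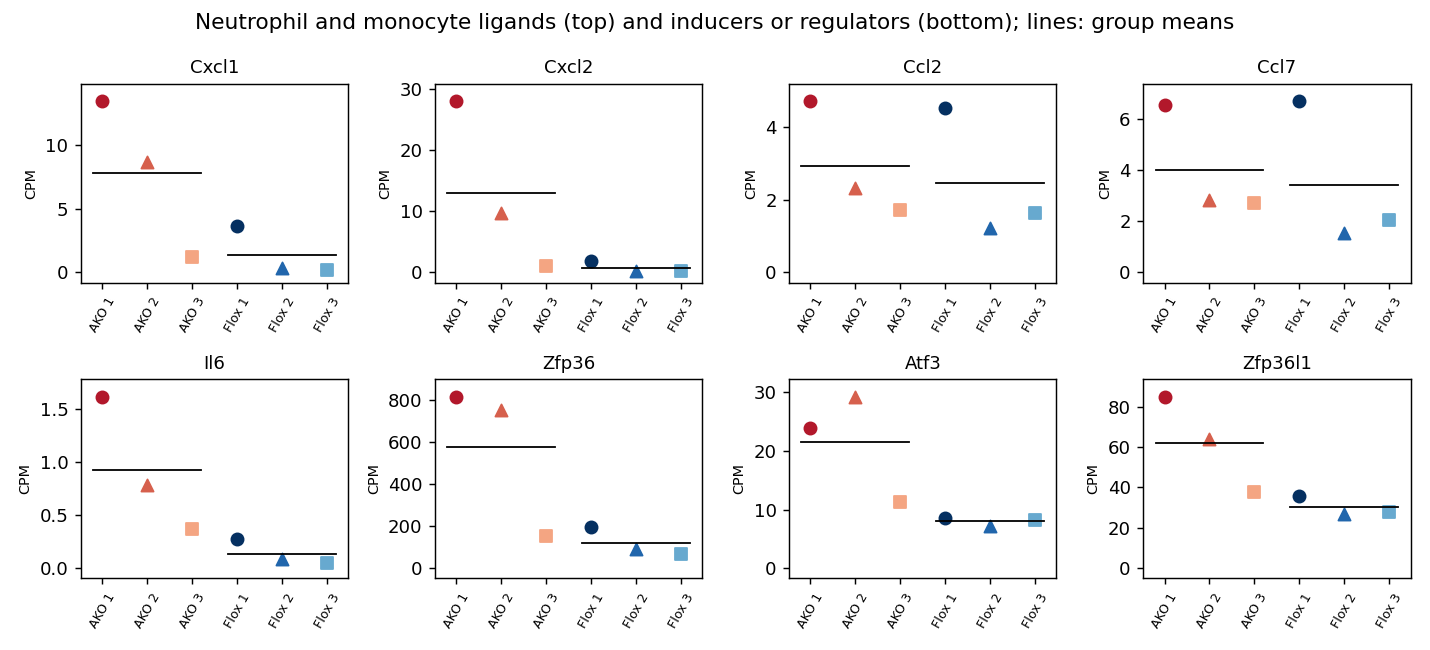
CPM per library (points) and group means (lines) of Cxcl1, Cxcl2, Ccl2 and Ccl7 and of the inducers or regulators Il6, Zfp36, Atf3 and Zfp36l1, each on its own linear axis. Celf1 AKO replicate 1 is the highest or second highest library in all 8 panels, and Flox control replicate 1 is as high as it for Ccl2 (4.53 against 4.71 CPM) and Ccl7 (6.72 against 6.55 CPM).

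The monocyte attractants Ccl2, Ccl7 and Ccl12 signal through Ccr2. Ccl2 was at 4.71, 2.31 and 1.71 CPM in Celf1 AKO and at 4.53, 1.21 and 1.64 CPM in Flox control, with replicate 1 of each group high and the groups mixed (log2 fold change 0.24, SE 0.57). Ccl7 had the same pattern, with a log2 fold change of 0.23 (SE 0.61). Ccl12 was at 1.89, 0.442 and 0.753 CPM against 0.583, 0.310 and 0.138 CPM, a log2 fold change of 1.58 (SE 0.68) with an edgeR adjusted p of 0.389. It was 0.84 without Celf1 AKO replicate 1, the library with the highest Ccl12.

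Ccl3, Ccl4 and Ccl5, which attract monocytes and T cells, were low in these libraries. Ccl3 was at 0.346, 0.262 and 0.430 CPM in Celf1 AKO and at 0.103, 0.192 and 0.184 CPM in Flox control, on 94 counts in all. Its groups did not overlap, yet the log2 fold change of 1.10 (SE 0.43) had an edgeR adjusted p of 0.350 and an exact two-sided permutation p of 0.1, the smallest that 3 against 3 can give. Ccl4 was at 0.272 ± 0.225 against 0.121 ± 0.0906 CPM (SD, n = 3 each), and Ccl5 at 3.49 ± 1.01 against 3.22 ± 1.01 CPM. Ccl17 and Ccl22, which attract T cells through Ccr4, had log2 fold changes of -0.14 (SE 0.58) and -0.55 (SE 0.67). The whole class of 11 monocyte and T cell ligands had 8 positive and 3 negative log2 fold changes, median 0.23, with edgeR adjusted p-values from 0.350 to 0.943.

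Ccl6 (chromosome 11, 83587882 to 83593087, minus strand) was at 515, 239.7 and 476 CPM in Celf1 AKO and at 466, 389.7 and 506 CPM in Flox control. Ccl9, its neighbour on the same strand (83572919 to 83578636), was at 438, 169 and 308 CPM in Celf1 AKO and at 291, 244 and 290.3 CPM in Flox control. For both genes Celf1 AKO replicate 1 was the highest of the 6 libraries and Celf1 AKO replicate 2 the lowest, so that the knockout libraries enclosed all 3 controls. Their log2 fold changes were -0.15 (SE 0.28) and 0.15 (SE 0.31). Ccl8, on chromosome 11 as well, was at 32.0, 8.91 and 13.0 CPM against 13.9, 9.95 and 14.5 CPM, with the same extremes.

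The 12 macrophage and monocyte markers listed summed to 1971, 744 and 1219 CPM in Celf1 AKO and to 1189, 1318 and 1561 CPM in Flox control. Of these, 11 were highest in Celf1 AKO replicate 1 and 10 were lowest in replicate 2, and 0 of the 12 passed the test. Among the members, replicate 2 was the lowest library for 16 of 40 (40%), against 23.4% of all genes, and replicate 1 the highest for 17 (42.5%), against 18.6%. The part of macrophages in these values was not tested.

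Ccr1, the receptor of Ccl6 and Ccl9 on monocytes and macrophages, was at 15.3, 6.91 and 14.9 CPM in Celf1 AKO and at 17.2, 10.5 and 15.7 CPM in Flox control. Ccr2, which lets monocytes leave the blood towards Ccl2, was at 18.7, 5.12 and 11.9 CPM against 13.3, 17.3 and 28.7 CPM. Celf1 AKO replicate 2 was the lowest library for both receptors, and the groups overlapped for each, since at least 1 other knockout library lay above the lowest control. The log2 fold changes were -0.23 (SE 0.33) for Ccr1 and -0.73 (SE 0.46) for Ccr2, with edgeR adjusted p-values of 0.800 and 0.537.

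**Figure D5:**
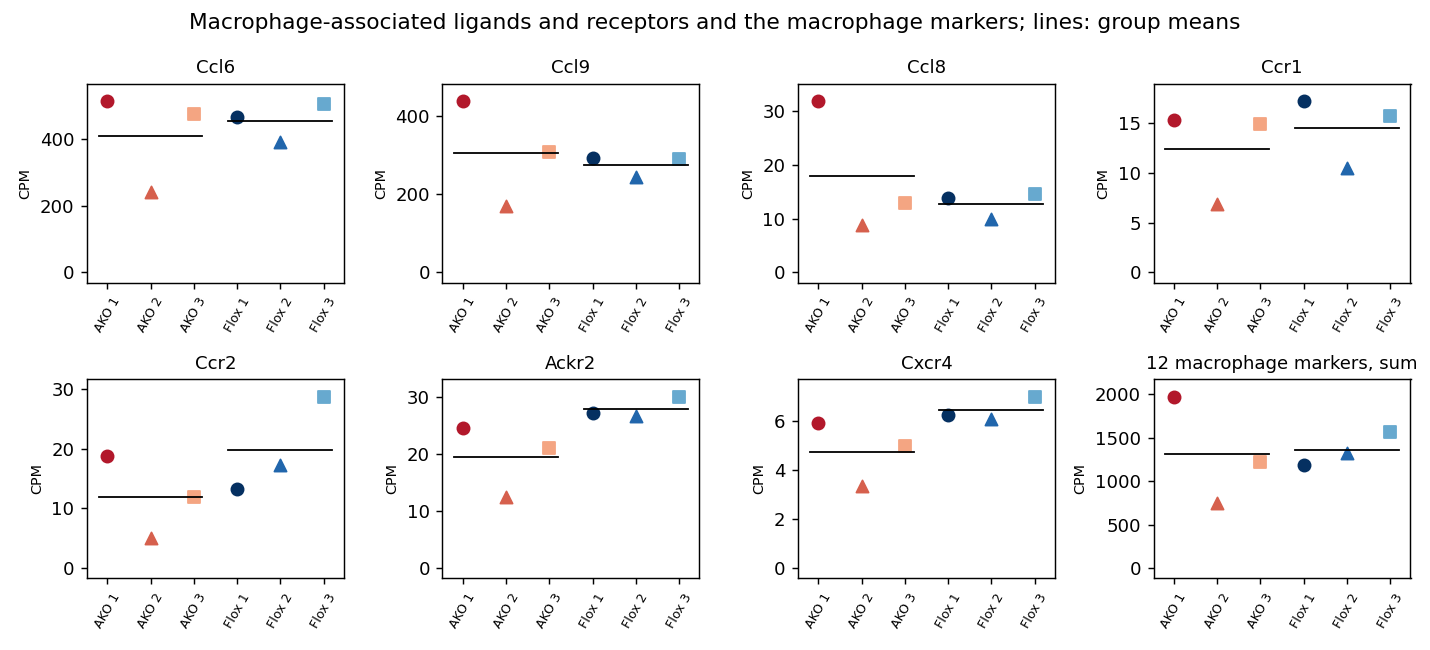
CPM per library (points) and group means (lines) of Ccl6, Ccl9, Ccl8, Ccr1, Ccr2, Ackr2 and Cxcr4 and of the sum of 12 macrophage markers, each on its own linear axis. Celf1 AKO replicate 2 is the lowest point in every panel, at 744 CPM for the marker sum.

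Cxcl12, the homeostatic ligand that holds progenitors and lymphocytes in tissue, was at 148, 189 and 241 CPM in Celf1 AKO and at 147, 149 and 117 CPM in Flox control. Celf1 AKO replicate 1 lay within the control range and the other knockout libraries above it. The log2 fold change was 0.49 (SE 0.19, edgeR adjusted p = 0.357), and 0.29 without Celf1 AKO replicate 3. Its receptor Cxcr4 was lower in all 3 Celf1 AKO libraries, at 5.91, 3.32 and 4.96 CPM against 6.21, 6.05 and 6.98 CPM. Cxcr4's log2 fold change of -0.44 (SE 0.25) had an edgeR adjusted p of 0.489 and was -0.24 without Celf1 AKO replicate 2. Ackr3, which takes Cxcl12 out of the tissue, was at 137, 80.8 and 81.6 CPM against 119, 102 and 142 CPM (log2 fold change -0.27, SE 0.23, and -0.53 to -0.14 with single libraries left out). Ligand and receptors of this axis thus had log2 fold changes of opposite sign, none past the test. Endothelial cells are among the sources of Cxcl12, and the sum of 8 endothelial markers was 1010, 1163 and 1117 CPM in Celf1 AKO and 725, 831 and 575 CPM in Flox control. Stromal cells make homeostatic ligands too, and the fibroblast and preadipocyte markers did not follow Cxcl12. They summed to 7053, 4413 and 4255 CPM in Celf1 AKO and to 4896, 4944 and 6507 CPM in Flox control. Of 8 tested, 1 had a positive log2 fold change (median -0.11). The part of either cell type in the Cxcl12 values was not tested.

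Cxcl13 guides B cells through Cxcr5. Cxcl13 (chromosome 5, 95956951 to 95961068, plus strand) was at 39.2, 122 and 118 CPM in Celf1 AKO and at 66.9, 38.0 and 47.0 CPM in Flox control. Celf1 AKO replicates 2 and 3 were the highest libraries, replicate 1 lay among the controls, and the log2 fold change was 0.88 (SE 0.41, edgeR adjusted p = 0.421). Cxcr5 was far lower, at 0.455, 0.606 and 0.784 CPM against 0.840, 0.738 and 1.93 CPM, and its log2 fold change was -0.92 (SE 0.45, edgeR adjusted p = 0.436). Cxcr5 shares exon sequence with Bcl9l on the opposite strand, so with the strand setting not given their reads cannot be told apart. Among the B cell markers listed, Ms4a1, Cd79a, Cd79b and Ighd were not among the genes analysed. Pax5, which sets B cell identity, failed the filter on low counts and was not tested. It was at 0.842 CPM in Flox control replicate 3, the library with the highest Cxcr5, and at most 0.182 CPM in the others. Ighm, the heavy chain gene of immunoglobulin M, was at 63.2, 115 and 67.7 CPM in Celf1 AKO and at 18.2, 28.5 and 35.5 CPM in Flox control (log2 fold change 1.58, edgeR adjusted p = 0.227, DESeq2 0.00021). Ccl19 and Ccl21a, the ligands that draw Ccr7-bearing cells to lymph nodes, were not analysed here, and Ccr7 was at 1.12 ± 0.202 against 1.19 ± 0.392 CPM (SD, n = 3 each).

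The other homeostatic ligands include Cxcl14, Ccl25, Ccl27a and Cxcl16. Cxcl14 was at 114, 54.7 and 38.5 CPM against 47.6, 46.6 and 20.0 CPM, high in Celf1 AKO replicate 1 and low in Flox control replicate 3. Its log2 fold change of 0.86 (SE 0.46, edgeR adjusted p = 0.467) was 0.33 without Celf1 AKO replicate 1. Ccl25, which attracts gut-homing lymphocytes, was at 2.66, 2.68 and 2.60 CPM in Celf1 AKO, below 3.89, 3.26 and 3.38 CPM in Flox control. Its log2 fold change was -0.41 (SE 0.20, edgeR adjusted p = 0.443). Ccl25 shares exon sequence with Elavl1 on the opposite strand, so with the strand setting not given their reads cannot be told apart, and Elavl1 had a log2 fold change of -0.25. In all, 8 members had an exon that overlaps an exon of another gene: besides Ccl25 these were Ackr1, Ackr4, Ccl27a, Cx3cr1, Cxcl10, Cxcl16 and Cxcr5. Ccl27a, which also has near-identical copies and is uncertain for that reason, was at 2.55 ± 0.345 against 2.29 ± 0.208 CPM (SD, n = 3 each). Cxcl16, a membrane-bound ligand, was at 5.56 ± 1.51 against 4.48 ± 0.329 CPM, and its receptor Cxcr6 at 0.683 ± 0.330 against 0.920 ± 0.339 CPM.

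Cxcl9 and Cxcl10 are induced by interferon and attract T cells through Cxcr3. Cxcl9 was at 25.6, 20.5 and 15.3 CPM in Celf1 AKO and at 19.2, 16.8 and 13.4 CPM in Flox control, with mixed groups and a log2 fold change of 0.32 (SE 0.22). Cxcl10 varied little, at 3.35, 3.27 and 1.98 CPM against 2.71, 3.10 and 2.83 CPM (log2 fold change -0.01, SE 0.27). Cxcr3 had a log2 fold change of 0.05 (SE 0.33). The 10 T and NK cell markers summed to 7.43 to 15.7 CPM in Celf1 AKO and 9.82 to 12.7 CPM in Flox control.

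The eotaxins Ccl11 and Ccl24 attract eosinophils, a cell linked to beige fat. Ccl11 was at 66.8, 38.9 and 48.3 CPM against 49.96, 35.2 and 42.0 CPM, and Ccl24 at 16.3, 5.89 and 6.24 CPM against 11.6, 4.46 and 7.97 CPM. In each gene replicate 1 was the highest library of its group and the groups overlapped. The log2 fold changes were 0.28 (SE 0.22) for Ccl11, 0.08 without Celf1 AKO replicate 1, and 0.24 (SE 0.48) for Ccl24. Ccr3, the eotaxin receptor of eosinophils, was under 0.3 CPM in every library, and the eosinophil markers Epx and Siglecf were not among the genes analysed. The mast cell and eosinophil list had 6 tested genes, Prg2 among them, with 1 positive log2 fold change (median -0.85) and 0 past the edgeR test.

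Cx3cl1, the membrane-bound fractalkine of endothelium and neurons, was at 3.003, 2.72 and 5.56 CPM against 1.73, 3.22 and 1.62 CPM (log2 fold change 0.78, SE 0.39, edgeR adjusted p = 0.447, and 0.38 without Celf1 AKO replicate 3). The highest value was in Celf1 AKO replicate 3, and Flox control replicate 2 exceeded the other knockout libraries.

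Ackr2 removes inflammatory CC ligands and was the atypical receptor with separate groups. Ackr2 (chromosome 9, 121898355 to 121911074, plus strand) was at 24.6, 12.5 and 21.04 CPM in Celf1 AKO and at 27.1, 26.5 and 30.0 CPM in Flox control. All 3 knockout libraries lay below all 3 controls, replicate 2 furthest, and the exact two-sided permutation p was 0.1, the smallest that 3 against 3 can give. The log2 fold change of -0.53 (SE 0.24) had an edgeR adjusted p of 0.403 and was -0.29 without Celf1 AKO replicate 2. Ackr4, which removes Ccl19, Ccl21 and Ccl25, was at 0.710, 0.900 and 4.70 CPM against 2.80, 3.03 and 5.203 CPM, with Celf1 AKO replicate 3 far above the other knockout libraries. Ackr4 had 39 and 55 counts in Celf1 AKO replicates 1 and 2. It shares exon sequence with Acad11 on the opposite strand, so with the strand setting not given their reads cannot be told apart. The log2 fold change of Ackr4 was -0.80 (SE 0.70, edgeR adjusted p = 0.657). Without Celf1 AKO replicate 3 it was -2.19 with an edgeR adjusted p of 0.0353, the only member called in that fit of 41 members, where 3.19% of all genes passed. The library left out there had the highest level of the skeletal muscle actin gene Acta1, 1039 CPM against 23.1 to 75.2 CPM in the others, and the highest sum of erythrocyte markers, 1271 against 351 to 598 CPM. Their part in the calls was not tested. Ackr1, the chemokine-presenting receptor of venules and erythroid cells, was at 15.0, 6.43 and 8.04 CPM against 11.4, 9.22 and 8.69 CPM, the knockout libraries again enclosing the controls, with means of 9.83 ± 4.57 and 9.78 ± 1.45 CPM (SD, n = 3 each) and a log2 fold change of 0.01 (SE 0.32) whose sign changed between settings.

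For the remaining receptors the log2 fold changes were -0.40 (SE 0.46) in Ccr10 and -0.43 (SE 0.46) in Cxcr6. Ccr3 and Xcr1 had -0.22 (SE 0.80) and -0.32 (SE 0.66). Ccl28, a mucosal ligand of Ccr10, had 0.30 (SE 0.56).

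In the 5 pathway lists besides the inducers 0 genes passed the edgeR test over all genes. DESeq2, which called 3.04% of all genes, called Ccrl2 (adjusted p = 0.0293), Tnfaip6 (0.00287), Gng2 (0.0270) and Sele (0.00369), besides Celf1 and Zfp36. Of 11 tested chemokine family genes outside the symbol rule 5 were positive (median -0.0014). Ccrl2, which binds chemerin and presents it to leukocytes, was at 17.8, 3.21 and 2.46 CPM in Celf1 AKO and at 1.304, 1.90 and 1.84 CPM in Flox control, separate groups with Celf1 AKO replicate 1 far above the rest. Its log2 fold change was 2.22 (SE 0.74, edgeR adjusted p = 0.314). Ppbp, a platelet chemokine, had 1.46 (SE 0.63) and Rarres2, which encodes chemerin, -0.24 (SE 0.12).

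Among 12 genes of chemokine processing and presentation 7 were positive (median 0.02). Tnfaip6, which binds chemokines and matrix, had a log2 fold change of 1.92 (SE 0.48), Ext1, a heparan sulfate polymerase, 0.46 (SE 0.14), and Ndst1, which sulfates the same chains, -0.38 (SE 0.15). Among 24 genes of receptor signalling 15 were positive (median 0.05). Gng2, a G-protein subunit, was at 34.1, 32.9 and 29.4 CPM in Celf1 AKO, above 24.7, 23.8 and 21.6 CPM in Flox control (log2 fold change 0.46, SE 0.12, edgeR adjusted p = 0.252). Rgs2 and Rgs16, which end G-protein signals, had 2.10 (SE 0.81) and 0.97 (SE 0.38). Of 13 genes of leukocyte adhesion 8 were positive (median 0.25). Sele, the endothelial E-selectin that slows rolling neutrophils, was at 1.24, 1.36 and 1.81 CPM in Celf1 AKO and at 0.583, 0.561 and 0.520 CPM in Flox control. Its libraries were separate, with a log2 fold change of 1.40 (SE 0.29) and an edgeR adjusted p of 0.227. Icam2 had 0.73 (SE 0.25) and Pecam1 0.47 (SE 0.26). Of 10 CELF proteins and mRNA decay factors 5 were positive (median 0.04), with Celf1 at -1.21 (SE 0.14).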

How the data were processed

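RNA from inguinal fat was sequenced in 6 libraries. For each Ensembl gene (16627 in all) the authors gave raw counts, in whole numbers, and the authors' FPKM values, 1 column per library per the file headers. HISAT2, RSEM 1.3.1, GRCm38 and mm10 appear in the submitters' processing notes without a role. The sources used here do not give strand setting or annotation. GENCODE M21 (GRCm38) named 16528 identifiers. The symbol rule matched 65 annotated entries, of which 41 were in the table. Some genes are not reported here by name, though counts over the members and lists include those analysed. The members and all lists were chosen with earlier results of these data known, and the lists support no call.

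The test was edgeR 4.0.16 in R 4.3.3 (quasi-likelihood, TMM, default filter, robust, genotype as the only term, 6 libraries), adjusted over 16366 genes and called under 0.05. It was tested on simulated data in which every gene had the same dispersion (spread between libraries beyond counting noise). That is a simpler setting than these libraries. SEs were obtained by dividing the log2 fold change by the square root of F. CPM is TMM-scaled. Named in full were members of at least 1 CPM with separate groups or an unadjusted p under 0.05, the 10 of highest FPKM, and those with a library over 5 times the median. Other members are given by role, and 3 genes of smallest p per list. Outside that rule, and chosen after their values were seen, are the per-library values of other members and list genes. The same holds for Pax5, Ighm, Tnf, Rela, Relb, Nfkb1, Nfkb2, Nfkbia, Nfkbiz, Nfkbie, Bcl3, Socs3, Ltf, Mmp9 and Acta1. No 2 libraries agreed within sampling noise (chi-square over its degrees of freedom at least 48.0). Alternatives used DESeq2 1.42.0 and limma 3.58.1. Proteins were not used here, so roles come from background knowledge.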

Additional observations from a re-analysis of the deposited data

How the results depend on the processing

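The number of members past the threshold stayed at 0 under all 11 other settings run on 6 libraries (RLE, upper-quartile and library-size scaling, 2 filters, DESeq2, limma-voom with quality weights, 3 FPKM fits and the block), with 28 to 41 members tested. With 1 library left out it ran from 0 to 1, the 1 being Ackr4 without Celf1 AKO replicate 3. The count over all genes, 2 in the test reported, was 0 with library totals only, 496 with DESeq2, 10 with limma-voom and quality weights, 0 on log2(FPKM + 1) and on log2(FPKM + 0.1) with a minimum of 1 FPKM, 1 on log2(FPKM + 1) without one, and 0 to 527 with 1 library left out. The cause was not tested. With the replicate number as a block it was 12, and 0 members. Same-numbered libraries had correlations of 0.0709, -0.0084 and 0.273 in their deviations from the group means, and Celf1 AKO replicate 2 correlated best with Flox control replicate 1 (0.299), so the numbers were not taken as pairs.

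Of the 17 members examined, 13 kept their direction in all alternatives that gave a value. Ackr1, at 0.01, was -0.017 with limma-voom and quality weights, -0.070 and -0.087 on log2(FPKM + 1) and log2(FPKM + 0.1) with the minimum, -0.070 without it, -0.077 with the block, and -0.40 to 0.24 with 1 library left out. Leaving out 1 library gave -0.30 to 0.13 for Ccl6, -0.17 to 0.44 for Ccl9 and -0.19 to 0.81 for Ccl8. Members below 1 CPM rest on fewer than about 68 counts a library, which limits their precision.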
